A study of Mus musculus with 26 samples.

Results

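The genes described here encode the machinery of the synapse: 34 genes for synaptic vesicle proteins, the SNARE proteins that fuse vesicles, active zone scaffolds, synaptic adhesion molecules and postsynaptic scaffolds. They were chosen by name with earlier results of these data known, so counts over them are descriptions. Each was read from probe sets that the array's annotation gives to that gene alone. All 34 were measured, among 18193 named genes on the array. The cells were 26 single cells from retinas of C57BL/6 mice with both Notch1 alleles floxed, each amplified and hybridised to its own array. Plasmids were electroporated into the eye on postnatal day 0, and cells were taken on postnatal day 3. The 13 WT cells received CAG:GFP, so they carried the floxed allele and no Cre. The 13 N1-CKO cells received CAG:Cre together with CALNL-GFP, a reporter that Cre switches on. The CAG promoter is active in nearly all cell types, so Cre was not limited to one retinal lineage. GFP-positive cells were picked by hand and may be of any type that took up the plasmids. The labels name no animal, litter or session for any cell, so each group counts as 1 sample of 13 cells and no test between the groups was made.

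A chemical synapse releases transmitter when a vesicle fuses with the presynaptic membrane. The vesicle SNARE synaptobrevin (Vamp genes) winds together with syntaxin (Stx genes) and SNAP-25 on the target membrane, synaptotagmin senses calcium, complexins bind the SNARE bundle, and the ATPase NSF takes used bundles apart. Bassoon, Piccolo and RIM organise the release site, and neurexins on the presynaptic side bind neuroligins on the postsynaptic side. In the mouse retina most synapses form after birth. Photoreceptors and bipolar cells there release from ribbon synapses, which use the complexins Cplx3 and Cplx4 and syntaxin 3, whereas amacrine cells form conventional synapses. Notch1 keeps retinal progenitors dividing, and its loss lets them leave the cycle early. The comparison bears on which of these synaptic transcripts retinal cells with floxed Notch1 carried on postnatal day 3, with and without Cre, and in which combinations.

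The bases upstream of the transcription start are shown for 4 members, to set beside the expression values: Nlgn2, Syt1 and Syp, which had the 3 largest differences between the groups, and Syn1. Syn1 encodes synapsin I and passed the detection rule given below in no cell. Each line gives the 250 bases before a RefSeq start (GRCm38.p6), 5′ to 3′ on the gene's strand, and Syt1 has 2 starts. Capitals in Nlgn2 and in the inner Syt1 window mark CAGCTG, a core bound by basic helix-loop-helix factors. In Syp they mark the reverse complement of TAATCC, a core bound by the photoreceptor factors OTX2 and CRX. In Syn1 they mark first the match to RE1, the element of the neuronal repressor REST, and then the cAMP response element TGACGTCA.
Nlgn2 (chr11:69837785-69838034, minus strand): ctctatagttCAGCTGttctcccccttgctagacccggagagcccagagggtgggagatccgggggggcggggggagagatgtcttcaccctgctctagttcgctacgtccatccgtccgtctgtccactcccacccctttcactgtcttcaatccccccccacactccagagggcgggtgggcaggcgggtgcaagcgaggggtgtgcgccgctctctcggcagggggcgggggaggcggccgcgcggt
Syt1, outer start (chr10:109010976-109011225, minus strand): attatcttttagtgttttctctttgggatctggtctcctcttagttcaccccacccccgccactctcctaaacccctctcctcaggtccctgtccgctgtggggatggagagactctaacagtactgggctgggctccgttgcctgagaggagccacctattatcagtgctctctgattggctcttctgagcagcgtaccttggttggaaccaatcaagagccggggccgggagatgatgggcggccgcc
Syt1, inner start (chr10:109009112-109009361, minus strand): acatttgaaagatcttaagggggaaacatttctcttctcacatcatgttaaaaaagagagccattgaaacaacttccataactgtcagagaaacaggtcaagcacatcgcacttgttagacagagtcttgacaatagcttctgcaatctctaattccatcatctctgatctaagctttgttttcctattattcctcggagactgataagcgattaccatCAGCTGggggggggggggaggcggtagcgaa
Syp (chrX:7638330-7638579, plus strand): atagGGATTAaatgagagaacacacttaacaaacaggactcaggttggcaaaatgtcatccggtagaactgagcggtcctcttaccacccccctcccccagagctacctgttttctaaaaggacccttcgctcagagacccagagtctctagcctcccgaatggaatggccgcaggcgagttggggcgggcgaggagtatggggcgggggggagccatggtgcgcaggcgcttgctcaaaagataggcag
Syn1 (chrX:20920919-20921168, minus strand): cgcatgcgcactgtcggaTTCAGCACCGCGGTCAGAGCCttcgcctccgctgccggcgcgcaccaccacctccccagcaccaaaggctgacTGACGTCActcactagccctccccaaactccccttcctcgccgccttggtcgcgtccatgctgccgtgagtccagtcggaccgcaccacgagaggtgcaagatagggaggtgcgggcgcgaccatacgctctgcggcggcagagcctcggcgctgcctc

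The canonical RE1 motif of 21 bases was searched on both strands with up to 2 mismatches at its specified positions, and the other motifs were searched exactly on both strands. It was found in 13 of 32851 windows of this length (0.0396%). Among the 40 windows of the 27 members with an entry, that of Syn1 was the only match, with 1 mismatch, starting 232 bases before the transcription start. TGACGTCA was present in 1.55% of all windows and, among members, in that of Syn1. CAGCTG was present in 13.0% of all windows and in 9 of the 40 member windows, which belong to 9 members. TAATCC was present in 6.25% of all windows and in 4 of the 40 member windows, which belong to Syp, Sv2b and Dlg4. None of these motifs overlapped another in the windows printed. These matches describe letters in a window and say nothing of binding in these cells.

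Transcripts were called detected in a cell when their signal, computed by the MAS5 algorithm, was at or above the 90th percentile of all probe sets on its array. This threshold lay between signals of 245 and 2409, with medians of 1478 over WT and 1151 over N1-CKO cells. The rule therefore names the brightest transcripts of each cell, and a transcript below it may still be present. Differences are means of log2 signal, N1-CKO minus WT, with signals below 25.02 raised to that floor. They mix the number of cells with a transcript and its level in those cells. Array qualities differed between cells. The 18S ribosomal control divided the arrays into a high 18S set (5 WT and 5 N1-CKO cells) and a low 18S set (8 and 8). The 3′ over 5′ ratio of the Gapdh control, which grows when cDNA is short, was above 3 in 2 WT cells (3 and 7) and in 5 N1-CKO cells (4, 5, 6, 12 and 13). The remaining 11 WT and 8 N1-CKO cells are called low-ratio cells. Notch1 itself was detected in 10 WT and in 8 N1-CKO cells, and where its 3′ probe set lies relative to the deleted part is not known here. At least 1 of 7 retinal progenitor markers was detected in every WT cell and in 11 N1-CKO cells, and 5 of 6 microglia markers were detected in no cell. Depth has no counterpart on arrays, and the number of cells limits the precision.

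Synaptic transcripts were present in cells of both groups, and more of them in N1-CKO cells. By the 1 probe set read per gene, 26 of the 34 genes were detected in at least 1 cell and 8 in none. Other probe sets of Nlgn3, one of the 8, were each detected in 1 WT cell. Among all named genes 41.9% were detected in none of the 26 cells. Detection was in more N1-CKO than WT cells for 19 members (55.9%), against 25.0% of all named genes and 39.2% of those detected in 2 or more cells. It was in fewer for 6 (17.6%), against 23.2% and 39.0%. Nlgn1 was detected in 1 cell of each group. The median difference over all 34 members was 0.36, against 0.05 over all named genes. It was 0.41 on high 18S arrays and 0.19 on low 18S arrays, where the medians of all genes were 0.21 and -0.01. Taking medians over cells instead gave 0.02.

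**Figure D1:**
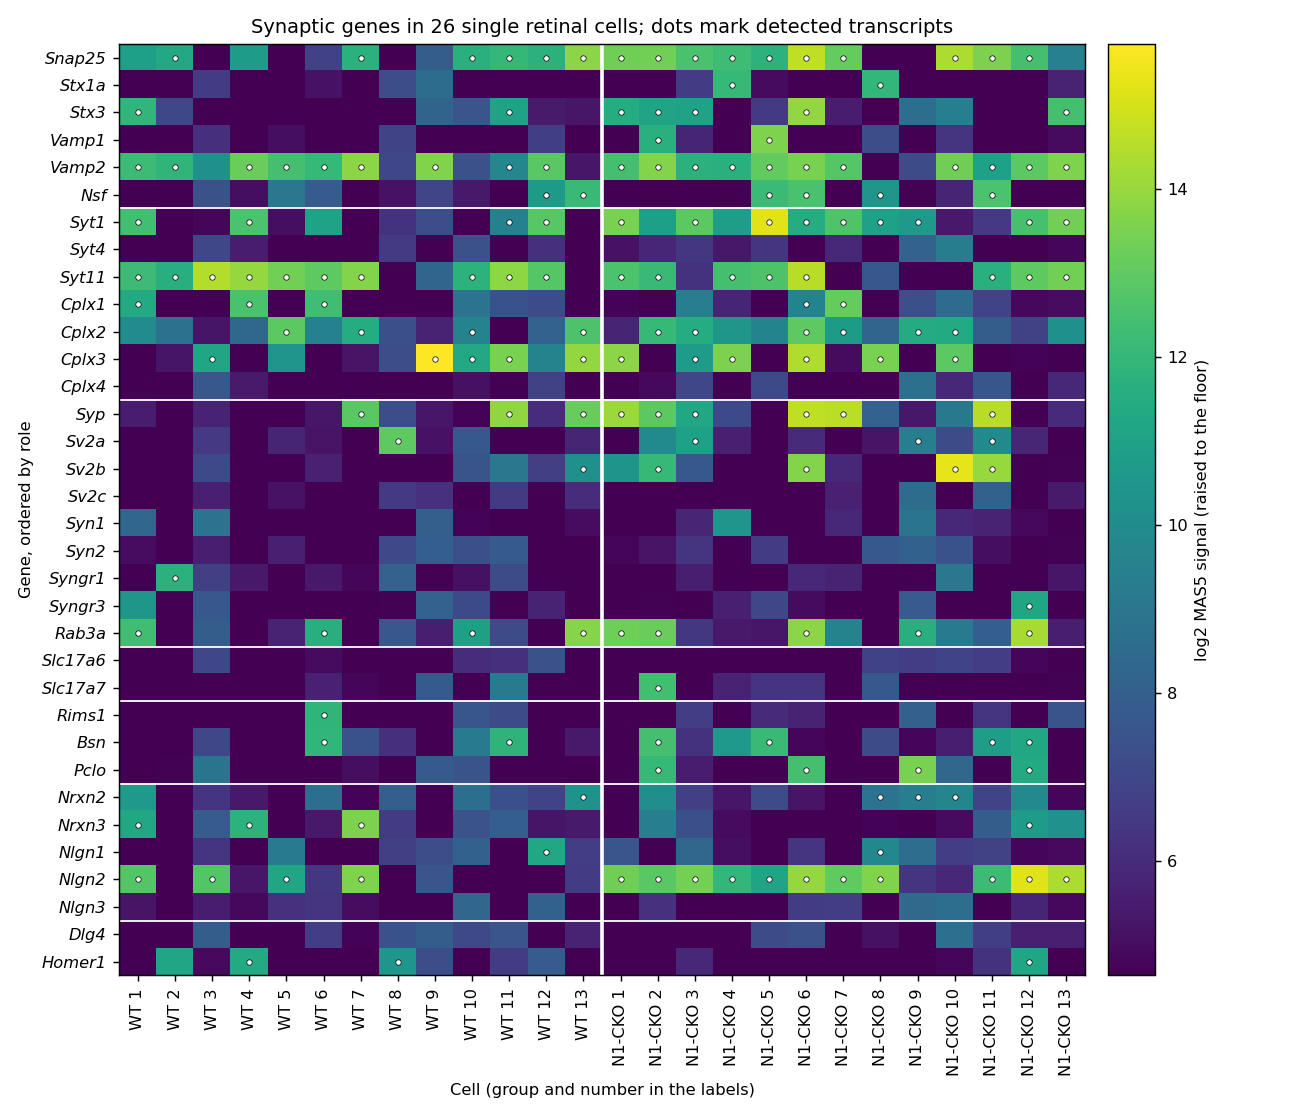
Log2 MAS5 signal of the 34 synaptic genes (rows, ordered by role) in 13 WT and 13 N1-CKO cells (columns, divided by the vertical white line); white dots mark detected transcripts. Snap25, Vamp2, Syt11 and Nlgn2 form the fullest rows, each detected in at least 15 of 26 cells, while 8 rows hold no dot.

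A difference of at least 2 on the log2 scale was seen for Nlgn2, Syt1, Syp, Sv2b and Snap25, all higher in N1-CKO cells. These 5 members are 14.7% of the 34, where 2.17% of all named genes reached that size, and 4.75% of the genes detected in 2 or more cells. No member was lower by 2 or more, against 3.18% of all named genes and 6.92% of those detected in 2 or more cells. Detection in at least 4 more N1-CKO than WT cells held for Nlgn2, Syt1, Snap25 and Pclo (11.8%, against 2.47% of all named genes and 5.43% of those detected in 2 or more cells). No member was detected in at least 4 fewer, against 3.06% and 6.73%. For Nlgn2 and Syt1 the difference was larger than the SD over cells in either group, and for the other 32 members it was not. How many of all named genes passed this criterion was not counted. Leaving out N1-CKO cell 2, 6 or 10 reduced the number of members past 2 from 5 to 3. The shares of genes detected in 2 or more cells have another denominator than the 34. By the same filter 22 members remained, of which 77.3% were detected in more and 18.2% in fewer N1-CKO cells, 22.7% were higher by at least 2 and 18.2% were detected in at least 4 more. A member bright in N1-CKO cells alone can pass that filter through them, so these shares are given as a description. In the high 18S set, of 5 cells per group, 4 members were higher and 3 (Syt11, Cplx3 and Homer1) lower by at least 2. The shares of all named genes past 2 in that set were not counted, so these counts have no background beside them.

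**Figure D2:**
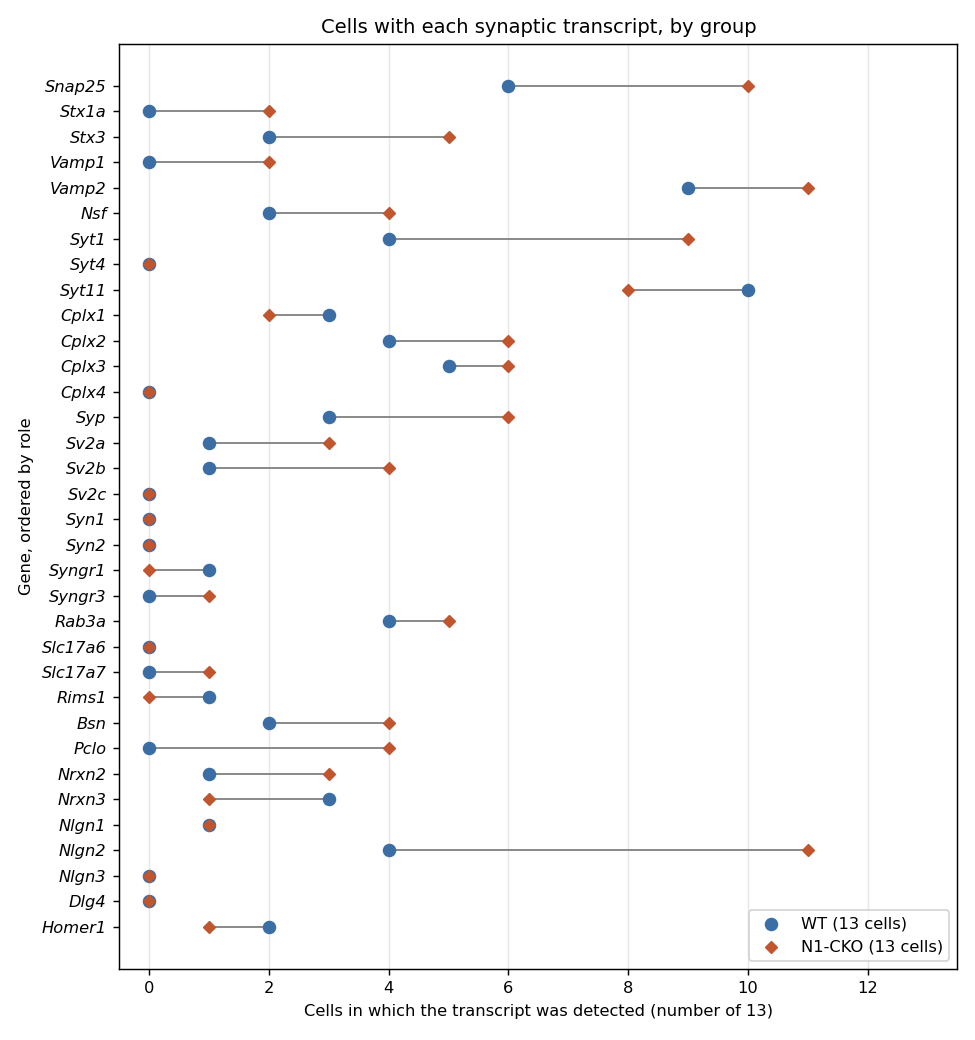
Number of cells, of 13 in each group, in which each of the 34 transcripts was detected (circles WT, diamonds N1-CKO). The widest gaps are those of Nlgn2 (4 and 11 cells) and Syt1 (4 and 9 cells), and Syt11, Cplx1, Syngr1, Rims1, Nrxn3 and Homer1 have the WT circle on the right.

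Of the SNARE core, the members for the vesicle and plasma membrane partners were the most widely detected. Vamp2, the main synaptobrevin of neurons, was detected in 9 WT cells (69.2%, exact Clopper-Pearson 95% interval 38.6 to 90.9) and 11 N1-CKO cells (84.6%, interval 54.6 to 98.1). Its signal ran from 40.3 to 14224 in WT cells, with a median of 4337, and from 9.53 to 12868 in N1-CKO cells (median 7057). The groups overlapped over nearly the whole range, and the mean log2 signals of 10.91 ± 2.77 (SD, 13 cells) and 11.65 ± 2.72 lay within the spread between cells. The difference of 0.74 changed direction with the array set, from -0.55 on high to 1.55 on low 18S arrays. All intervals of this kind cover counting error only.

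Snap25, the plasma membrane SNARE that contributes helices to the fusion bundle, was detected in 6 WT cells (46.2%, interval 19.2 to 74.9) and 10 N1-CKO cells (76.9%, interval 46.2 to 94.96). Its signal ran from 1.41 to 14302 in WT (median 1886) and from 9.95 to 25963 in N1-CKO cells (median 5999). Most N1-CKO cells were bright, but WT cell 13 was among the brightest of all, 5 other WT cells were detected, and N1-CKO cells 8 and 9 were dark, so the groups overlapped. WT cells 1 and 4, at 1886 and 1668, lay below their arrays' thresholds of 2233 and 2120 but above 1252, the 90th percentile pooled over all arrays. N1-CKO cells 8, 9 and 13, at 9.95, 15.4 and 713, lay below both. The means of 9.43 ± 3.25 and 11.56 ± 3.32 differed by 2.13, with 0.33 on high 18S arrays, 3.25 on low 18S arrays and 1.54 over the low-ratio cells. A second Snap25 probe set was detected in 17 cells, among them all 16 in which the first was, and differed by 2.17.

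The syntaxins were rarer. Stx3, the syntaxin of retinal ribbon synapses, was detected in 2 WT cells (1 and 11) and 5 N1-CKO cells (1, 2, 3, 6 and 13), with signals from 4.22 to 3920 (median 39.3) and from 0.736 to 15766 (median 405). Most WT cells lay near the floor, though WT cells 1 and 11 were about as bright as detected N1-CKO cells, and the difference of 1.87 was smaller than the spread, with 0.30 on high and 2.85 on low 18S arrays. Another Stx3 probe set had a difference of -0.60 and was detected in 3 cells. Stx1a, the syntaxin of conventional synapses, was detected in N1-CKO cells 4 and 8 and in no WT cell, and its probe set is of a kind that can also bind other transcripts. Nsf was detected in 2 WT and in 4 N1-CKO cells, with signals from 3.44 to 4583 (median 42.3) and from 0.988 to 6228 (median 24.7). Its difference of 0.20 was 1.07 on high and -0.35 on low 18S arrays. Vamp1, a further synaptobrevin, was detected in N1-CKO cells 2 and 5.

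Of the synaptotagmins, Syt1 and Syt11 were detected. Syt1, the fast calcium sensor of release, was detected in 4 WT cells (30.8%, interval 9.09 to 61.4) and 9 N1-CKO cells (69.2%, interval 38.6 to 90.9). Its signal ran from 1.26 to 7456 in WT cells (median 77.1) and from 42.1 to 38478 in N1-CKO cells (median 2910). Most WT cells lay below most N1-CKO cells, yet the ranges overlapped because WT cells 1, 4, 6 and 12 were bright, cell 6 just below its array's threshold. The means were 7.73 ± 3.44 and 11.30 ± 2.73, a difference of 3.58. That difference was 1.16 on high 18S arrays, 5.09 on low 18S arrays and 2.16 over the low-ratio cells, and 1.34 as the mean of its 4 probe sets. The other 3 Syt1 probe sets were detected in at most 1 cell each.

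Syt11, a synaptotagmin that does not bind calcium and acts in membrane uptake, was detected in 10 WT cells (76.9%) and 8 N1-CKO cells (61.5%). Its signal ran from 8.15 to 22497 in WT cells (median 7145) and from 7.45 to 23527 in N1-CKO cells (median 4483). The groups covered the same range. The difference was -1.39, smaller than the spread, with -3.28 on high and -0.20 on low 18S arrays and -2.89 over the low-ratio cells. Of its 4 other probe sets, all detected in cells of both groups, a pair had small positive differences of 0.39 and 0.04. Syt4, a related synaptotagmin, was detected in no cell (0 of 26 cells, exact interval 0 to 13.2%).

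Complexins were detected in cells of both groups. Cplx3, the complexin of ribbon synapses, was detected in 5 WT cells (38.5%) and 6 N1-CKO cells (46.2%), with signals from 3.64 to 54056 (median 768) and from 4.76 to 21486 (median 31.5). Both groups held bright cells and cells near the floor, and the difference of -0.42 was far below the spread. It was -2.19 on high 18S arrays and 0.69 on low 18S arrays. Cplx2, a complexin of conventional synapses, was detected in 4 WT and in 6 N1-CKO cells, with signals from 12.4 to 7778 (median 435) and from 54.7 to 8091 (median 1438). Its groups overlapped throughout, with a difference of 1.13 that was 3.01 on high and -0.05 on low 18S arrays. Cplx1 was detected in 3 WT and in 2 N1-CKO cells, all on low 18S arrays, and Cplx4 in none.

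**Figure D3:**
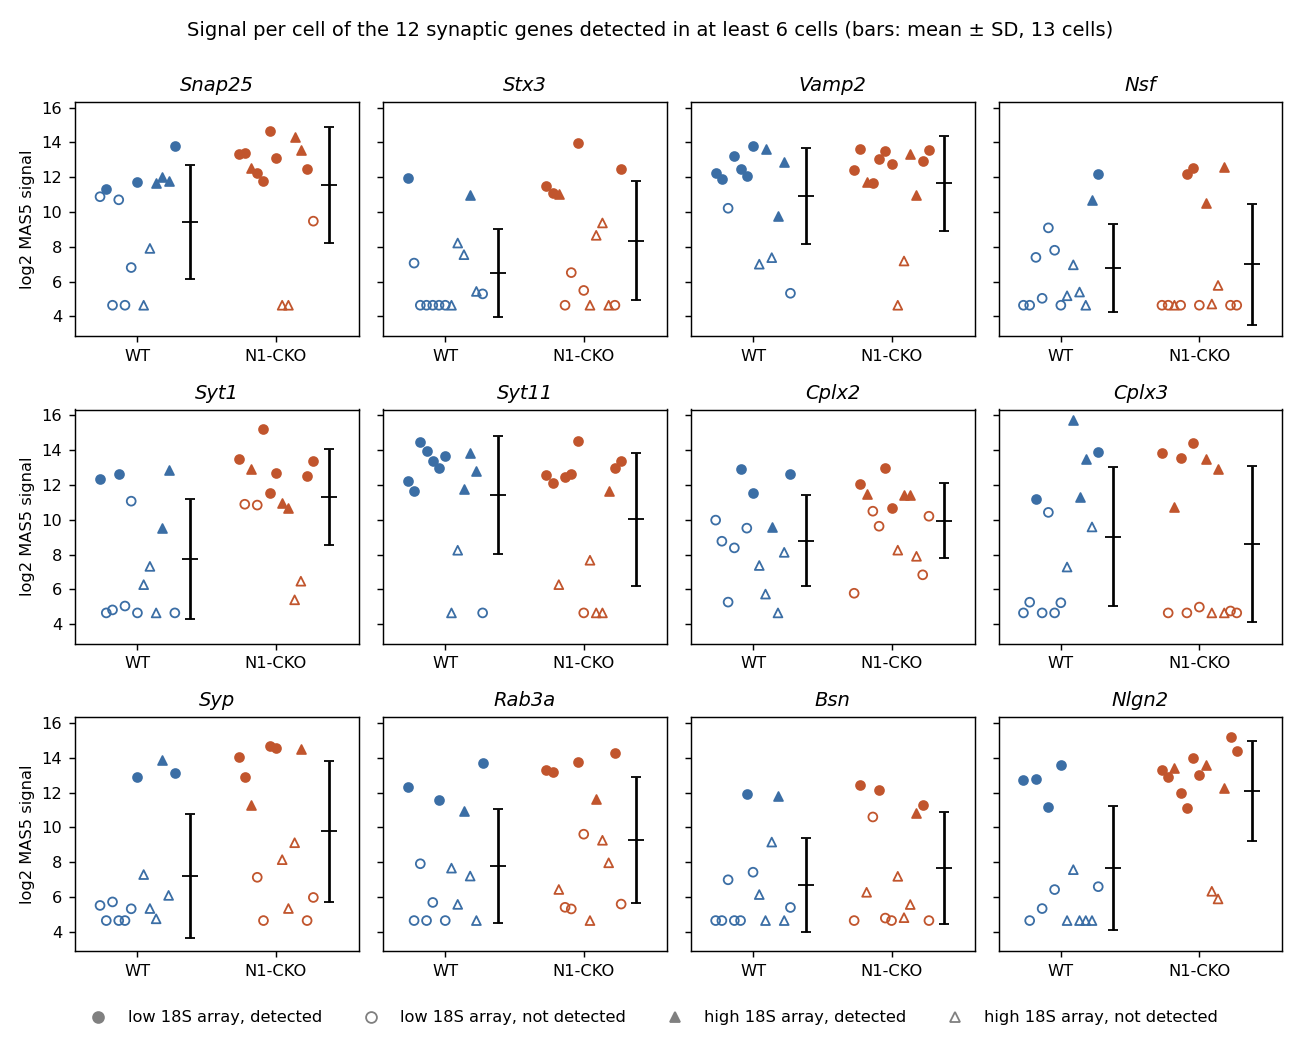
Log2 MAS5 signal per cell of the 12 synaptic genes detected in at least 6 cells, for WT and N1-CKO cells; filled symbols are detected, triangles are high 18S arrays, and bars give mean ± SD over 13 cells. Most genes split into bright cells and cells near the floor in both groups; for Nlgn2 only N1-CKO cells 9 and 10 are dark in that group.

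Of the vesicle membrane proteins, Syp and Rab3a were each detected in 9 cells and the others in at most 5. Syp (synaptophysin), a major membrane protein of neuronal vesicles, was detected in 3 WT cells (7, 11 and 13) and 6 N1-CKO cells (1, 2, 3, 6, 7 and 11). Its signal ran from 2.77 to 15139 in WT cells (median 45.7) and from 2.80 to 26087 in N1-CKO cells (median 556). The 3 detected WT cells lay within the range of the detected N1-CKO cells, of which 1, 6, 7 and 11 were brighter than any WT cell. The difference of 2.55 (7.22 ± 3.55 against 9.77 ± 4.05) was smaller than the spread. It was 2.22 on high and 2.76 on low 18S arrays, and 4.40 over the low-ratio cells. As the mean of both probe sets it was 1.42.

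The SV2 glycoproteins mark all vesicles and help to prime them. Sv2b, the form of ribbon synapses, was detected in WT cell 13 and in N1-CKO cells 2, 6, 10 and 11, with signals of up to 1168 and up to 40274. Its difference was 2.16, with 2.73 and 1.81 on high and low 18S arrays, and a second probe set gave 2.23. With medians over cells it was 1.23, since most cells of both groups were dark. Sv2a was detected in WT cell 8 and N1-CKO cells 3, 9 and 11, all on high 18S arrays, and Sv2c in no cell.

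Rab3a, the vesicle GTPase that docks vesicles through RIM, was detected in 4 WT and in 5 N1-CKO cells, with signals from 2.31 to 13266 (median 147) and from 9.71 to 19683 (median 613). The groups overlapped and the difference was 1.47. Its second probe set was detected in 7 cells, 6 of them shared with the first. Synapsins, which tether the vesicle reserve, were absent from the detected set: neither Syn1 nor Syn2 was detected in any cell, and none of the 6 Syn2 probe sets was. The highest Syn1 signals were 464 in WT cells and 1417 in N1-CKO cells. The latter, in cell 4, lay below that array's threshold of 2131 but above 1252, the 90th percentile pooled over all arrays. Syngr1 was detected in WT cell 2 and Syngr3 in N1-CKO cell 12.

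Vesicular glutamate transporters, which fill the vesicles of photoreceptors, bipolar and ganglion cells, were nearly undetected. Slc17a7, the transporter of photoreceptors and bipolar cells, was detected in N1-CKO cell 2 at a signal of 5329 and in no WT cell. Slc17a6, the transporter of ganglion cells, was detected in no cell, and its highest signals were 166 in WT and 118 in N1-CKO cells.

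Active zone scaffolds appeared in few cells. Pclo (Piccolo) was detected in 4 N1-CKO cells (2, 6, 9 and 12; 30.8%, interval 9.09 to 61.4) and in no WT cell (interval 0 to 24.7), with signals up to 11381 and up to 481. The difference was 1.90, with 1.47 and 2.17 on high and low 18S arrays. The other 2 Pclo probe sets were detected in no cell. Bsn (Bassoon) was detected in 2 WT cells (6 and 11) and 4 N1-CKO cells (2, 5, 11 and 12), with signals from 1.14 to 3883 (median 42.1) and from 0.842 to 5611 (median 77.2). Its difference of 1.01 was -0.35 on high and 1.86 on low 18S arrays. A second Bsn probe set was detected in 3 cells, none of which had the first. Rims1 was detected in WT cell 6.

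Of the adhesion molecules, Nlgn2 stood apart from its family. Nlgn2 (neuroligin 2), which in the brain sits at inhibitory synapses, was detected in 4 WT cells (1, 3, 5 and 7; 30.8%, interval 9.09 to 61.4) and in 11 N1-CKO cells, all but 9 and 10 (84.6%, interval 54.6 to 98.1). Its signal ran from 5.74 to 12181 in WT cells (median 86.0) and from 59.2 to 37113 in N1-CKO cells (median 8320). The 4 detected WT cells reached into the N1-CKO range, and the other 9 WT cells lay below every detected N1-CKO cell. The means were 7.64 ± 3.57 and 12.10 ± 2.86. The difference of 4.45 was 5.06 on high 18S arrays, where Nlgn2 was detected in 0 of 5 WT and 3 of 5 N1-CKO cells, and 4.07 on low 18S arrays. It was 4.69 over the low-ratio cells. A second Nlgn2 probe set was detected in a single N1-CKO cell, one without the first, and differed by 0.13, so that these values rest on 1 probe set.

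The other neuroligins and the neurexins were rare. Nlgn1 was detected in WT cell 12 and N1-CKO cell 8, and Nlgn3 in no cell by the probe set used, while its other probe sets were each detected in 1 WT cell. Nrxn3 was detected in 3 WT cells (1, 4 and 7) and N1-CKO cell 12, with mean log2 signals of 7.43 and 6.42. The other 4 Nrxn3 probe sets had small positive differences of 0.21 to 0.38, a pair of them detected in 1 N1-CKO cell each, and the mean of all 5 gave 0.03. Nrxn2 was detected in WT cell 13 and N1-CKO cells 8, 9 and 10, with a difference of 0.20 that was 1.20 on high and -0.43 on low 18S arrays. Postsynaptic scaffolds were no more frequent. Dlg4, which encodes PSD-95, was detected in no cell by any of its 3 probe sets, with signals up to 240 in WT and 418 in N1-CKO cells. Homer1 was detected in WT cells 4 and 8 and N1-CKO cell 12, with a difference of -1.36 that was -2.11 on high and -0.89 on low 18S arrays.

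**Figure D4:**
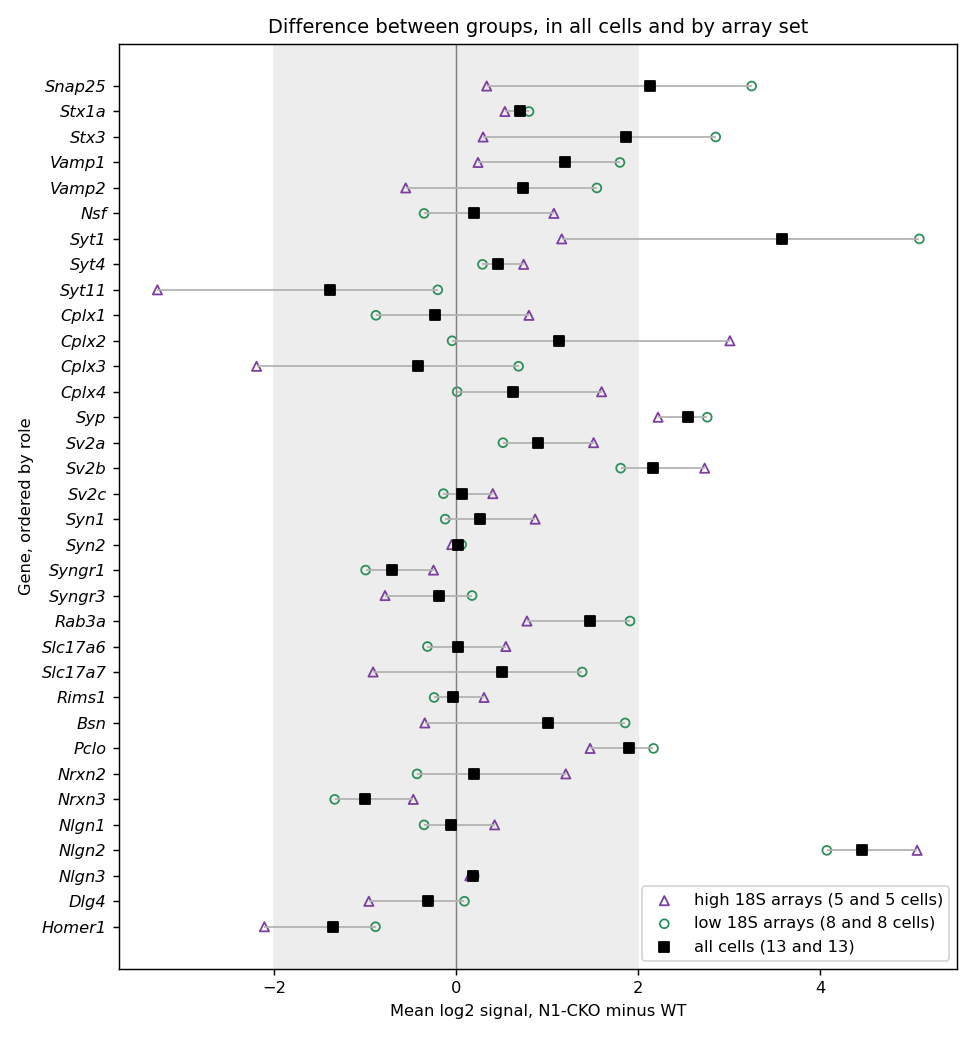
Mean log2 signal of N1-CKO minus WT cells for each of the 34 genes, in all cells (squares), in the high 18S arrays (triangles) and in the low 18S arrays (circles); grey shading spans -2 to 2. Nlgn2 and Syp lie beyond 2 in both sets, whereas Snap25 (0.33 and 3.25) and Syt1 (1.16 and 5.09) differ between the sets.

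Snap25 was found together with Vamp2, and with Syt1, in more N1-CKO than WT cells, and each of these genes was itself detected in more. Snap25 and Vamp2 were detected together in 4 WT cells (2, 7, 11 and 12) and in 10 N1-CKO cells, so that every N1-CKO cell with Snap25 also had Vamp2. Vamp2 was thus detected in 4 of the 6 WT cells with Snap25, and in 9 of all 13 WT cells, and in 10 of 10 N1-CKO cells with Snap25, and in 11 of all 13. These 14 cells are 87.5% of the cells with Snap25 and 70.0% of those with Vamp2. Snap25 and Syt1 were detected together in 2 WT cells (11 and 12) and 6 N1-CKO cells (1, 3, 5, 6, 7 and 12), which are 50.0% and 61.5% of the cells with each. Syt1 was detected in 2 of the 6 WT cells with Snap25 and 4 of all 13, and in 6 of the 10 N1-CKO cells with Snap25 and 9 of all 13. Whether partners occurred together more often than their own counts give was not tested. Every cell with both had Vamp2 as well. Adding a syntaxin, Stx1a or Stx3, left WT cell 11 and N1-CKO cells 1, 3 and 6. Split by array set, Snap25 and Syt1 were together in 2 WT and 1 N1-CKO cells of the high 18S set and in 0 and 5 of the low 18S set.

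Other pairs were less complete. Snap25 was found with a complexin in 4 WT and 7 N1-CKO cells (68.8% of the cells with Snap25). Syt1 and Syp were together in WT cell 11 and N1-CKO cells 1, 3, 6 and 7 (38.5% and 55.6% of the cells with each). Bsn and Pclo, 2 large scaffolds of the same active zone, were together in N1-CKO cells 2 and 12. A neuroligin was detected with a neurexin in 2 WT cells (1 and 7) and 2 N1-CKO cells (8 and 12), which are 25.0% of the cells with a neuroligin. Nlgn2 was found with Dlg4 in no cell, since Dlg4 was not detected. The cell with Slc17a7, N1-CKO cell 2, had Syp.

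Nlgn2 and Snap25, a pair chosen after the values were seen, were together in WT cell 7 alone and in 9 N1-CKO cells. Nlgn2 and Syt1 were together in WT cell 1 and in 8 N1-CKO cells. The photoreceptor factor Crx, present in 6 WT cells and 10 N1-CKO cells, was detected with Snap25 in 4 WT and 8 N1-CKO cells. It was detected with Syt1 in 2 and 6, and with Nlgn2 in 0 and 8. Among N1-CKO cells, Crx was thus in 8 of 10 with Snap25, 6 of 9 with Syt1 and 8 of 11 with Nlgn2, and in 10 of all 13. Among WT cells these were 4 of 6, 2 of 4 and 0 of 4, and 6 of all 13. The proliferation marker Mki67 was present in 11 WT cells and in N1-CKO cells 1, 2, 3 and 11. It was found with Snap25 in 5 WT and 4 N1-CKO cells, with Syt1 in 4 and 2, and with Nlgn2 in 3 and 4. Among WT cells, Mki67 was thus in 5 of 6 with Snap25, 4 of 4 with Syt1 and 3 of 4 with Nlgn2, and in 11 of all 13. Among N1-CKO cells these were 4 of 10, 2 of 9 and 4 of 11, and 4 of all 13.

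Cells differed in how many of the 34 transcripts they carried. WT cells had 2 to 8 detected members, with a median of 6, and N1-CKO cells 5 to 14 (median 8). The groups overlapped between 5 and 8, no WT cell exceeded 8, and no N1-CKO cell was below 5. In the high 18S set the medians were 5 (2 to 8) and 7 (6 to 9), and on low 18S arrays 6 (3 to 8) and 8.5 (5 to 14). Over the low-ratio cells they were 6 and 8. The fullest N1-CKO cells were 6 (14 members), 2 (13) and 12 (11). Cell 6 had the lowest detection threshold of all arrays, a signal of 245, and cells 6 and 12 had Gapdh ratios of 7.05 and 30.3. With a single threshold for all arrays, an alternative chosen after seeing the data, the medians stayed at 6 and 8 and the highest counts were 11 in WT and 14 in N1-CKO cells.

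**Figure D5:**
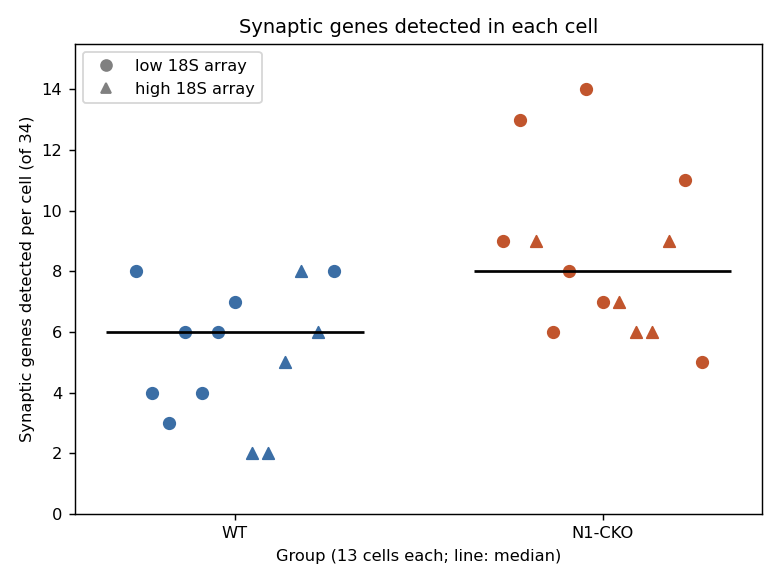
Number of the 34 synaptic genes detected in each cell, by group (lines: medians of 6 and 8); triangles are high 18S arrays, circles low 18S arrays. N1-CKO cells range from 5 to 14 and WT cells from 2 to 8, with 3 N1-CKO cells above 10.

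Markers of other cell states moved with the groups in these cells. All 11 measured markers of cycling cells were lower on average in N1-CKO than in WT cells. A WT cell had a median of 7 of them detected (0 to 11) and an N1-CKO cell 1 (0 to 7). Their summed signal ran from 1432 to 191339 (WT) and from 256 to 87983 (N1-CKO), and none of these markers was undetected throughout. Of 10 photoreceptor markers, 8 had higher means in N1-CKO cells, with medians of 2 and 5 detected per cell, summed signals of 57.6 to 242775 and 175 to 424003, and Rcvrn and Thrb detected in no cell. Amacrine markers had medians of 1 detected per cell in both groups, with summed signals of 38.4 to 25281 (WT) and 255 to 57360 (N1-CKO) and Gad1 detected in no cell. The part of these cell states in the synaptic values was not tested. The fullest cells were not of one kind: N1-CKO cell 2 had 7 cycling and 7 photoreceptor markers detected, cell 6 had 2 and 5, and cell 12 had 2 and 0. Amacrine markers detected in these cells numbered 4, 0 and 3.

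Beyond the 34, a list of 97 other synaptic genes held 90 measured on the array. Their median difference was 0.24, against 0.05 over all named genes. Detection was in more N1-CKO than WT cells for 34 (37.8%) and in fewer for 21 (23.3%), where the shares of all named genes were 25.0% and 23.2%. Of named genes detected in 2 or more cells, another denominator, the shares were 39.2% and 39.0%. Of the 90 genes, 25.6% were detected in no cell, against 41.9% of all named genes. Differences of at least 2 were seen for 5 (5.56%), against 2.17% of all named genes and 4.75% of those detected in 2 or more cells, and 1 gene was lower by at least 2 (1.11%, against 3.18%). Bin1, a membrane-bending endocytic protein, was detected in 4 WT and in 9 N1-CKO cells (2.94), but differed by -2.69 on high and 6.46 on low 18S arrays. Atp6v0a1, a subunit of the proton pump that acidifies vesicles, was detected in 7 and 10 cells (2.64), and Napb, the neuronal SNAP that recruits NSF, in 2 and 7 (2.62). The adhesion gene Cadm3 was detected in 3 and 6 cells (2.10). At the other end, Cadm1, a homophilic adhesion molecule, was detected in 10 WT and in 3 N1-CKO cells (-3.43). Vamp3 and Vamp4, synaptobrevins of endosomal and Golgi traffic in most cell types, were detected in 8 and 4 cells (-1.87) and in 8 and 5 cells (-1.62), and Sypl, a synaptophysin relative of non-neuronal tissues, in 5 and 2 cells (-1.39). All 4 were lower in both array sets.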

How the data were processed

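The deposited values are MAS5 array intensity on a linear scale, 1 cell per array, made by the authors per the submitters' processing notes. For MAS5, the version was not given in the sources used here. Every array had a 2% trimmed mean of 500.0, so the values hold no measure of total RNA. GEO's platform annotation gave 1 gene to 34945 of the 45101 probe sets. Probe sets with several genes (932, of which 1 lists Vamp1) were left out, and 9160 that are not controls are unnamed here. The 34 members had 89 probe sets. Signals below the pooled median of 25.02 were raised to it, and each gene was read from its brightest probe set by mean log2 signal. Levels of different probe sets were not compared.

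Detection was the 90th percentile of each array, 4504 probe sets per cell. Each group counts as 1 sample, so values are descriptions and SDs are over cells. Array sets were split at the largest gap in the 5′ probe set of the 18S control. Alternatives changed the floor, the probe set, detection, the summary over cells, the scaling, the array set and the Gapdh limit, and left out each cell. Members and lists were chosen with earlier results of these data known, and the gap of 4 cells, the pairs of Nlgn2 with Snap25 and Syt1, and those with Mki67 and Crx after seeing values. Members detected in at least 6 cells are described in full, and of the other synaptic genes the 4 highest and 4 lowest differences among those detected in at least 6 cells are named. The other marker lists gave median differences of -1.97 for progenitors, 0.51 for bipolar, 0.75 for horizontal and -0.19 for ganglion cells, 0.31 for Müller glia, -0.27 for astrocytes, 0.05 for microglia, -0.30 for vessels and -0.18 for red blood cells. Promoter windows and gene names came from RefSeq (GRCm38.p6). In 200 of 200 overlapping windows on opposite strands the sequences were reverse complements. On simulated data, the difference of group means returned constants added to the N1-CKO values, which checks that arithmetic alone. The floor, the choice of probe set, the detection rule and the partner counts were not checked in this way. Python 3.11.15, numpy 2.4.6, pandas 2.3.3 and scipy 1.17.1 were used.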

Additional observations from a re-analysis of the deposited data

How the results depend on the processing

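No paired analysis was possible because the result comes from no test and the cell numbers only name cells. Over the alternatives other than leaving out a cell, Nlgn2 differed by 2.29 to 6.60, Syt1 by 1.16 to 5.24, Syp by 1.42 to 4.40, Sv2b by 1.23 to 3.23 and Snap25 by 0.33 to 3.25, all higher in N1-CKO cells. The number of members higher by at least 2 was 3 with the mean of all probe sets. The number lower by at least 2 was 1 with a floor at a signal of 1, 1 with medians over cells, 3 on high 18S arrays and 2 over the low-ratio cells. Members detected in more and in fewer N1-CKO cells numbered 10 and 2 in the high 18S set, 13 and 8 over the low-ratio cells, 16 and 8 with a common threshold, chosen after seeing the data, and 20 and 8 at the 80th percentile. Shares of all named genes under these alternatives were not counted. Limiting the median difference to members detected in at least 2 cells gave 0.95, against -0.04 for all named genes under that filter. Stx1a, Vamp1 and Pclo passed the filter through N1-CKO cells alone, so this value is a description. The filter also dropped the members detected in fewer than 2 cells, whose differences ran from -0.71 to 0.62. How much each of these moved the median was not counted. The medians of members detected per WT and N1-CKO cell were 3 and 4 with detection at the 95th percentile and 9 and 12 at the 80th. Snap25 with Syt1 was found in 0 WT and 3 N1-CKO cells at the 95th percentile, in 4 WT cells at the 80th, in 1 N1-CKO cell of the high and 0 WT cells of the low 18S set, and in 3 low-ratio N1-CKO cells.

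With 1 cell left out, the median difference ranged from 0.27 to 0.49, members higher by at least 2 from 3 to 7, members lower by at least 2 stayed at 0, members detected in more N1-CKO cells ranged from 17 to 20 and in fewer from 4 to 7, and members per cell from 5.5 to 6 (WT) and 7.5 to 8.5 (N1-CKO). Snap25 with Syt1 ranged from 1 to 2 WT and from 5 to 6 N1-CKO cells, the lower WT count without WT cell 11 or 12. Signals near the floor carry no order, and a transcript below a cell's threshold may be present.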
